A study of Homo sapiens with 8 samples.

Results

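The transcription factors CDX1, CDX2, HNF4A, HNF4G, GATA6, FOXA2, KLF4 and KLF5, which set and maintain the intestinal character of gut epithelium, were followed through every library of a knockdown study in LS174T cells. The 8 genes were taken as a given list of endodermal and intestinal regulators and found by symbol among the 57736 Ensembl gene identifiers of each file. No measured value entered the choice, although results of these data were already known when the list was drawn up. All 8 were present in every library and all 8 passed the filter on low values, which asks for a value of 10 or higher in 2 or more libraries.

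LS174T is a long-established colon adenocarcinoma line of human origin. Its derivatives used here overproduce the Tet repressor and carry a short hairpin RNA that doxycycline switches on. The hairpin is directed at ASCL2, a basic helix-loop-helix factor of intestinal stem cells, in the first line. In the other, where it sits in a modified pTER vector, it is directed at the long non-coding transcript WiNTRLINC1. The 4 groups, of 2 libraries each, were the ASCL2 line without doxycycline, the ASCL2 line with it, the WiNTRLINC1 line without it and the WiNTRLINC1 line with it. Treated cells had grown for 3 days in doxycycline at 1 ug/ml, and all 8 libraries came from Ion Proton sequencing of RNA isolated with Trizol. The WiNTRLINC1 line came from cell clones screened by RT-PCR for the knockdown, and no line without a hairpin was treated, so the action of a hairpin and that of doxycycline cannot be told apart. Titles and genotype labels conflict in all 8 samples, each genotype naming the target of the opposite line, and the groups here follow the titles. Nothing in the labels shows that replicates were separate cultures, so a p-value here reflects the spread between these libraries, which may be technical.

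CDX1 and CDX2 are caudal-type homeodomain proteins that open and hold intestinal chromatin, and loss of CDX2 lets intestinal epithelium take on features of stomach. HNF4A and HNF4G are nuclear receptors that bind the same DNA sites and act redundantly in enterocyte genes of lipid uptake and the brush border. GATA6 and FOXA2 are zinc finger and forkhead proteins of early endoderm that remain active in adult gut. KLF5 is concentrated in dividing crypt cells, whereas KLF4 is concentrated in differentiated cells at the surface and in goblet cells, and both bind GC-rich and CACCC sites.

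The deposited value of a gene is a read count scaled per library and rounded to a whole number. Summed values per library lay between 21524463 and 22941231, and 31503 to 33959 genes had a value above 0 in a library. Of 10 colon epithelial markers, all 10 had a value of at least 10 in every library. Their summed level was 203944 to 224473 in the untreated ASCL2 line and 188644 to 208578 after doxycycline. It was 136944 to 143998 in the untreated WiNTRLINC1 line and 107711 to 108716 after doxycycline. The keratins KRT8 and KRT18 made up most of it. In the WiNTRLINC1 line KRT18 went from 38977 and 36188 to 8197 and 7734. There EPCAM, KRT20, CDH17 and CEACAM5 were higher in both treated libraries than in both controls. CDH1, LGALS4, VIL1 and GPA33 were lower, and KRT8 overlapped.

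Of 9 stomach markers found, 5 had a value of at least 10 in every library (TFF1, TFF2, MUC5AC, MUC6 and PGC), while the stomach factor SOX2 lay between 1 and 7 and GKN1 between 0 and 2. Their summed level was 14193 to 16376 in the untreated ASCL2 line, 17188 to 18307 after doxycycline, 50902 to 54091 in the untreated WiNTRLINC1 line and 47209 to 47433 after doxycycline. MUC6 made up most of it, with values of 42594 and 46332 without and 31362 and 32015 with doxycycline in the WiNTRLINC1 line. The other 4 of these were higher there in both treated libraries than in both controls: MUC5AC went from 4492 and 4546 to 9456 and 8993, TFF1 from 973 and 816 to 1831 and 1950, TFF2 from 2617 and 2227 to 4211 and 4105 and PGC from 199 and 157 to 331 and 353. In the same treated libraries KLF4 was higher and CDX2 lower than in the controls. KLF4 was also higher and CDX2 lower in treated ASCL2-line cells, but there TFF2 went down, from 162 and 138 to 86 and 104. In that line TFF1 (446 and 377 to 358 and 412), MUC5AC (177 and 131 to 139 and 118) and PGC (17 and 12 to 20 and 16) overlapped. MUC6 was higher, from 13383 and 15697 to 16567 and 17647. Summed liver markers lay between 254 and 329, between 153 and 173, between 857 and 861 and between 764 and 802 in the same order of groups, mostly through SERPINA1, with ALB between 1 and 32. The pancreatic hormone INS lay between 0 and 1 and the lung factor NKX2-1 between 0 and 6. Their part in any result below was not tested.

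Knockdown was checked on ASCL2 only, and the level of WiNTRLINC1 was not checked. ASCL2 stood at 2855 and 3373 in untreated cells of the ASCL2 line, 532 and 586 after doxycycline, 2540 and 2034 in untreated cells of the WiNTRLINC1 line and 805 and 697 after doxycycline. It fell with doxycycline in both lines, 5.55-fold in the first and 3.03-fold in the second (limma, Benjamini-Hochberg adjusted p = 3.93e-09 and 3.46e-07). The fall was deeper in the ASCL2 line, by 0.87 in log2 units (limma, adjusted p = 0.00206). That call was lost without the filter on low values and without the mean-variance trend. Because ASCL2 fell in both lines, its level does not show which of the conflicting labels is right.

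Doxycycline treatment was followed by lower CDX1 and CDX2 and higher HNF4G, FOXA2 and KLF4 in the ASCL2 line, and by lower CDX2 and KLF5 and higher KLF4 in the WiNTRLINC1 line. CDX2 fell and KLF4 rose in both. The calls of CDX2 and KLF5 in the WiNTRLINC1 line were lost under 6 and 7 of 19 alternative settings. Those of KLF4 and HNF4G in the ASCL2 line were each lost under 6 of 20. GATA6 and HNF4A passed the test in neither line. Bulk RNA was measured, so fewer cells of a type and less RNA per cell cannot be told apart. The study's title speaks of a regulatory loop between both targets, so the comparison of each treated group with its untreated line asks what each knockdown left of the intestinal regulators.

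In the ASCL2 line, 3 of the 8 factors rose and 2 fell at an adjusted p under 0.05 by limma, against 26.6% of the 22100 genes tested (13.9% higher and 12.7% lower). The 2 treated libraries lay outside the range of the 2 untreated ones for 7 of the 8, against 60.6% of all genes. In the WiNTRLINC1 line 1 factor rose and 2 fell, against 18.6% of all genes (9.54% higher and 9.03% lower), and 7 of 8 did not overlap, against 54.8%. The response itself differed between the lines for 4 factors, with the signed log2 change in the WiNTRLINC1 line minus that in the ASCL2 line above 0 for 3 of them and below 0 for 1, against 15.0% of all genes (7.39% and 7.6%). Median log2 changes over the 8 factors were 0.026 and 0.056 in the ASCL2 and WiNTRLINC1 lines, beside 0.00625 and 0.00724 over all genes.

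**Figure D1:**
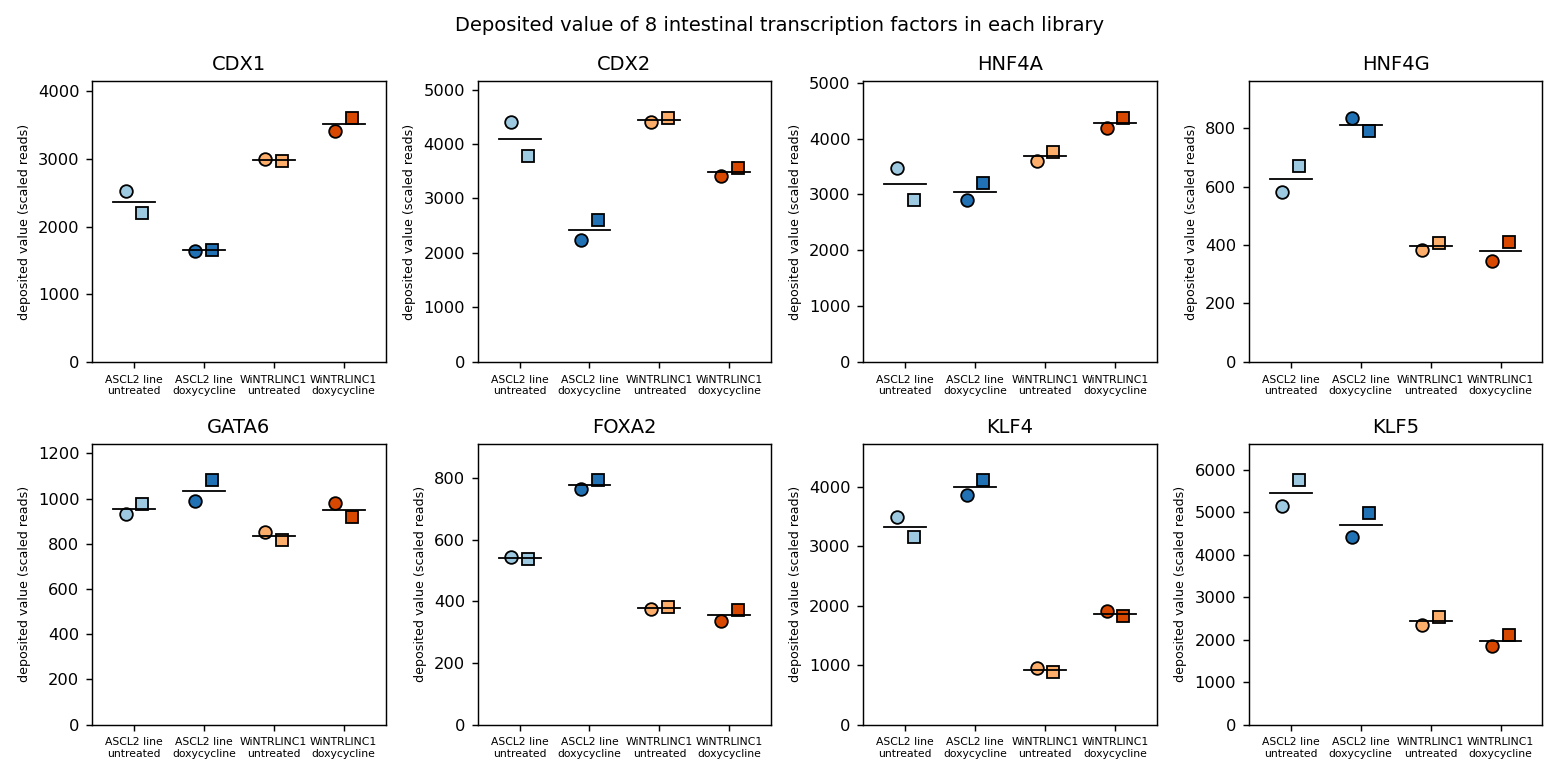
Deposited values (scaled reads, linear axes from 0) of each of the 8 factors in the 4 groups. Circles and squares are the first and second library of a group and bars are group means. CDX2 is lower and KLF4 higher with doxycycline in both lines, and KLF4 and KLF5 are lower in all WiNTRLINC1-line libraries than in all ASCL2-line libraries.

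CDX1 (ENSG00000113722, chromosome 5) fell in the ASCL2 line and responded differently in the other. Its values were 2534 and 2197 in untreated cells of the ASCL2 line and 1636 and 1660 after doxycycline. They were 3007 and 2968 in untreated cells of the WiNTRLINC1 line and 3409 and 3611 after doxycycline. Treated libraries therefore lay below both controls in the ASCL2 line and above both in the WiNTRLINC1 line. CDX1 fell 1.43-fold in the ASCL2 line (log2 change -0.52, SE 0.081, limma, Benjamini-Hochberg adjusted p = 0.000269). The WiNTRLINC1-line change of 0.23 (95% interval 0.06 to 0.41) missed the threshold at an adjusted p of 0.0615 by limma, and between alternatives this p ranged from 0.035 to 0.297. The difference between both responses was 0.75 in log2 units (SE 0.115, limma, adjusted p = 0.000389).

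CDX2 (ENSG00000165556, chromosome 13), the more broadly required member of the CDX pair, was lower with doxycycline in both lines. Untreated ASCL2-line cells had 4409 and 3787 and treated ones 2241 and 2612. Untreated WiNTRLINC1-line cells had 4412 and 4484 and treated ones 3415 and 3554. The untreated libraries of both lines started near the same level, and every treated library lay below every untreated one. CDX2 fell 1.69-fold in the ASCL2 line (log2 change -0.76, SE 0.090, limma, adjusted p = 2.22e-05) and, with the WiNTRLINC1 hairpin, 1.28-fold (-0.35, SE 0.090, adjusted p = 0.0124). The second call was lost when any 1 of the 4 WiNTRLINC1-line libraries was left out (limma, adjusted p between 0.055 and 0.0934), while the log2 change stayed between -0.38 and -0.32. The 2 responses differed by 0.40 (SE 0.127, limma, adjusted p = 0.0442), a call lost under 11 of 19 alternatives with adjusted p up to 0.23. These included leaving out the first untreated or the first treated ASCL2-line library (difference 0.294 and 0.293, adjusted p = 0.179 and 0.194) or any WiNTRLINC1-line library (adjusted p between 0.0891 and 0.14).

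The start of the CDX2 gene is shown because CDX2 fell in both lines. These are the 250 bases before the start in RefSeq (GRCh38.p14, chr13:27969316-27969565, minus strand, 5′ to 3′), with matches to the searched GATA and FOXA letters in capitals.
CDX2: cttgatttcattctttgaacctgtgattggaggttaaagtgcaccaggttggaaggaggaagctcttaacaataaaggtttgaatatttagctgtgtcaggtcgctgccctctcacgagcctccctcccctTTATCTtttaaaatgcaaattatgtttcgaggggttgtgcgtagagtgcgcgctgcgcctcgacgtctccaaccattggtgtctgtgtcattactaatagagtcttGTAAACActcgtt
The GATA match (AGATAA, read here on the other strand as TTATCT) began at position -119 from the start and the FOXA match (TGTTTAC, read as GTAAACA) at position -13. Over windows of 300 bases at 35116 RefSeq promoters, 10.3% held the GATA letters and 3.42% the FOXA letters on either strand. Neither TTTATG, a CDX motif, nor CAGCTG, an E-box that ASCL factors can bind, was found there, and they occurred in 10.6% and 17.9% of promoters. A match describes letters and not a bound site.

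Per length of annotated exons, CDX1 was the more abundant of the pair in every library. The ratio of CDX1 to CDX2 was 1.35 and 1.36 in untreated ASCL2-line cells and 1.71 and 1.49 after doxycycline. It was 1.60 and 1.55 in untreated WiNTRLINC1-line cells and 2.34 and 2.38 after doxycycline. Treated libraries had the higher ratio in both lines, without overlap, and the ratio was highest in treated WiNTRLINC1-line cells.

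HNF4A (ENSG00000101076, chromosome 20), the nuclear receptor most tied to enterocyte differentiation, did not pass the test in either line. It read 3471 and 2906 in untreated ASCL2-line cells, 2893 and 3196 after doxycycline, 3605 and 3754 in untreated WiNTRLINC1-line cells and 4188 and 4375 after doxycycline. Groups overlapped in the ASCL2 line and did not in the WiNTRLINC1 line. The log2 change was -0.06 in the ASCL2 line (95% interval -0.25 to 0.13, limma, adjusted p = 0.654) and 0.22 in the WiNTRLINC1 line (0.03 to 0.41, adjusted p = 0.105). Leaving out the first untreated or the first treated ASCL2-line library turned the sign of the first, to 0.0654 and 0.00907.

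HNF4G (ENSG00000164749, chromosome 8), its close relative, rose in the ASCL2 line. Values were 583 and 672 in untreated ASCL2-line cells and 836 and 789 after doxycycline. WiNTRLINC1-line values were 384 and 408 without and 347 and 409 with doxycycline. Both treated ASCL2-line libraries exceeded both controls, whereas the WiNTRLINC1-line groups overlapped. HNF4G rose 1.30-fold in the ASCL2 line (log2 change 0.38, SE 0.115, limma, adjusted p = 0.0253). This call was lost without the first untreated library (0.273, adjusted p = 0.185), without the first treated library (0.334, adjusted p = 0.15) and without the second treated library (0.417, adjusted p = 0.0781). The change in the WiNTRLINC1 line was -0.07 (95% interval -0.32 to 0.17, adjusted p = 0.748 by limma), and without the first treated library it was 0.0471. The difference between responses was -0.45 (-0.79 to -0.10) and missed the threshold, at an adjusted p of 0.0826 by limma.

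Per length, HNF4A exceeded HNF4G 3.91 and 2.84 times in untreated ASCL2-line libraries, 2.28 and 2.66 times after doxycycline, 6.17 and 6.05 times in untreated WiNTRLINC1-line libraries and 7.93 and 7.03 times after doxycycline. The balance leaned further to HNF4A in all 4 WiNTRLINC1-line libraries than in any ASCL2-line library.

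GATA6 (ENSG00000141448, chromosome 18) varied least of the 8. It read 934 and 978 in untreated and 991 and 1081 in treated ASCL2-line cells, and 852 and 818 in untreated and 979 and 918 in treated WiNTRLINC1-line cells. Treated libraries lay slightly above their controls in both lines. The changes of 0.11 (95% interval -0.08 to 0.31) and 0.18 (-0.01 to 0.37) did not pass the test (limma, adjusted p = 0.385 and 0.185). GATA6-AS1, which shares exonic sequence with GATA6 on the opposite strand, had 6, 8, 8 and 8 in the ASCL2 line and 71, 61, 98 and 112 in the WiNTRLINC1 line. Whether counting used strand is not given in the sources used here, so some reads could belong to either gene.

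The other endodermal GATA factors were barely detected. GATA4 lay between 2 and 8 and GATA5 between 2 and 5 over all 8 libraries, too low to be tested.

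FOXA2 (ENSG00000125798, chromosome 20), a forkhead pioneer factor that opens chromatin in endoderm, rose in the ASCL2 line. It went from 544 and 537 to 765 and 793 there, and from 375 and 381 to 337 and 373 in the WiNTRLINC1 line. Groups did not overlap in either line, but the separation was wide in the ASCL2 line and only 2 units in the WiNTRLINC1 line. FOXA2 rose 1.44-fold in the ASCL2 line (log2 change 0.53, SE 0.103, limma, adjusted p = 0.00155) and had a change of -0.09 in the WiNTRLINC1 line (95% interval -0.31 to 0.13, adjusted p = 0.619). The responses differed by -0.62 (SE 0.146, limma, adjusted p = 0.00925), which slipped to 0.0503 without the mean-variance trend and to 0.0502 with equal upper quartiles.

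Its relative FOXA1 moved the other way in the ASCL2 line. FOXA1 had 1643 and 1550 in untreated and 1262 and 1111 in treated ASCL2-line cells, and 963 and 960 in untreated and 1171 and 1092 in treated WiNTRLINC1-line cells. It fell 1.35-fold in the ASCL2 line, and its response was 0.66 higher on the log2 scale in the WiNTRLINC1 line (limma, adjusted p = 0.00227 and 0.00207).

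KLF4 (ENSG00000136826, chromosome 9), a factor of cell-cycle exit and goblet cell maturation, rose in both lines and more so in the WiNTRLINC1 line. ASCL2-line cells had 3499 and 3152 without and 3868 and 4107 with doxycycline. WiNTRLINC1-line cells had 960 and 892 without and 1905 and 1822 with doxycycline. Treated libraries lay above controls in both lines, yet the treated WiNTRLINC1-line cells remained below every ASCL2-line library. KLF4 rose 2.01-fold in the WiNTRLINC1 line (log2 change 1.01, SE 0.081, limma, adjusted p = 8.36e-07), a call kept under all 19 alternatives. It rose 1.20-fold in the ASCL2 line (0.26, SE 0.081, limma, adjusted p = 0.0263). Leaving out the second untreated library ended that call (0.188, adjusted p = 0.192), as did leaving out the first treated library (0.306, adjusted p = 0.0591) or the second one (0.22, adjusted p = 0.179). The responses differed by 0.75 (SE 0.115, limma, adjusted p = 0.000411), with adjusted p no higher than 0.0419 under any alternative tried.

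The 250 bases before the start of KLF4 are shown because KLF4 had the largest change with doxycycline among the 8 (RefSeq, GRCh38.p14, chr9:107489770-107490019, minus strand, 5′ to 3′), with an E-box in capitals.
KLF4: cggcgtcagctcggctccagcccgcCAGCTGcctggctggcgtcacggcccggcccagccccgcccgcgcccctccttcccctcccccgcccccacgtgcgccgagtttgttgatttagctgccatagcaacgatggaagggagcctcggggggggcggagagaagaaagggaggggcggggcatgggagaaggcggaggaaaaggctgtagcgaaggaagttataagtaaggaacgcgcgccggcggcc
The E-box CAGCTG began at position -225 from the start. The same letters lay in 3 of the 7 windows available for 5 of the factors, those of KLF4, GATA6 and 1 of 2 for HNF4A, and in 17.9% of all promoters. The TCF/LEF letters ATCAAAG lay in 0 of the 7 windows and in 2.62% of all promoters. HNF4 (CAAAGTC, 3.37%), KLF (GGGTGTG, 7.56%) and CDX letters were found in 0 of the 7, each searched on both strands.

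KLF5 (ENSG00000102554, chromosome 13), a factor of dividing crypt cells, was lower in the treated libraries of both lines. It had 5153 and 5752 in untreated ASCL2-line cells and 4411 and 4982 after doxycycline. WiNTRLINC1-line cells had 2335 and 2539 without and 1851 and 2102 with doxycycline. The groups did not overlap in either line. KLF5 fell 1.23-fold in the WiNTRLINC1 line (log2 change -0.30, SE 0.091, limma, adjusted p = 0.0293), a call lost under 7 of 19 alternatives. Among these were leaving out the first untreated library (-0.364, adjusted p = 0.0506), the second untreated library (-0.243, adjusted p = 0.185) or the first treated library (-0.212, adjusted p = 0.248). In the ASCL2 line the change of -0.22 (95% interval -0.41 to -0.02) missed the threshold at an adjusted p of 0.0945 by limma. It passed with equal totals (-0.26, limma, adjusted p = 0.0375) and with a replicate block (adjusted p = 0.032, or 0.0382 with the ASCL2-line numbers crossed), and leaving out 1 ASCL2-line library moved the change to between -0.304 (without the second treated one) and -0.128 (without the first treated one). The difference between responses was -0.09 (-0.36 to 0.19, limma, adjusted p = 0.73).

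KLF4 stood closer to KLF5 after doxycycline in both lines. The ratio of KLF4 to KLF5 per length was 0.722 and 0.583 in untreated ASCL2-line libraries and 0.933 and 0.877 after doxycycline. WiNTRLINC1-line libraries gave 0.437 and 0.374 without and 1.09 and 0.922 with doxycycline. Untreated and treated ratios did not overlap in either line.

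**Figure D2:**
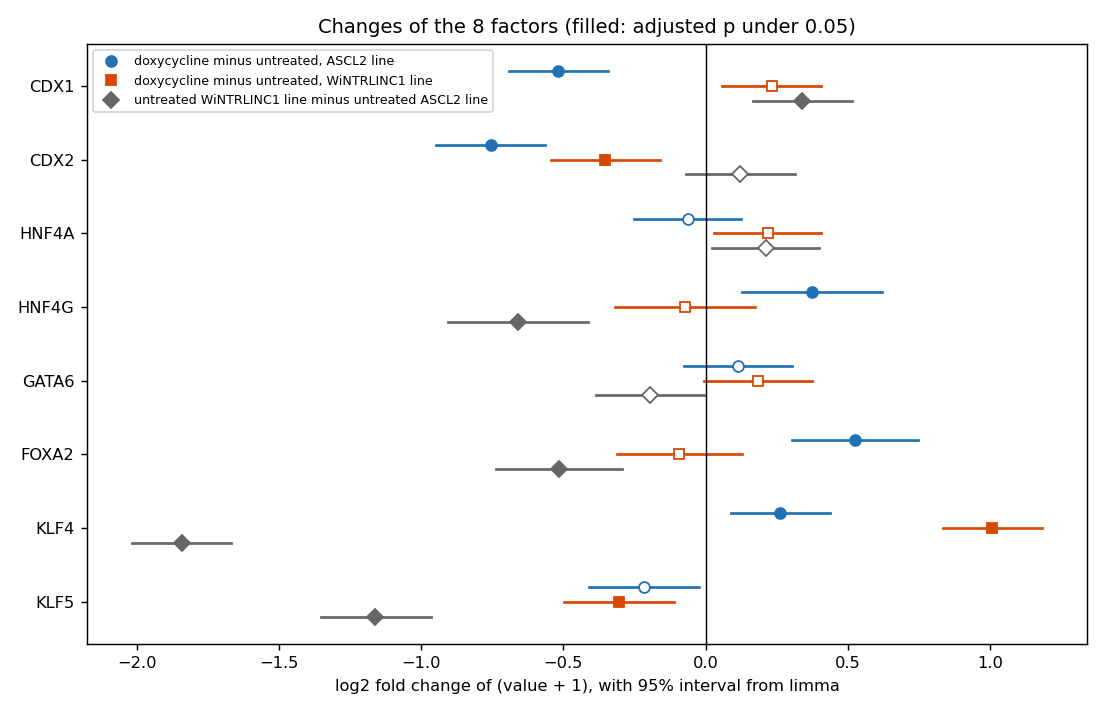
Log2 fold changes of the 8 factors with 95% intervals from limma for doxycycline against untreated cells in each line and for untreated WiNTRLINC1-line against untreated ASCL2-line cells. Filled symbols have an adjusted p under 0.05. KLF4 has the widest spread of changes, from -1.84 between untreated lines to 1.01 with doxycycline, while GATA6 has no filled symbol.

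Before any doxycycline the lines already differed in these factors. In untreated cells CDX1 was higher and HNF4G, FOXA2, KLF4 and KLF5 were lower in the WiNTRLINC1 line, which makes 1 higher and 4 lower of 8 against 55.2% of all genes (25.7% higher and 29.5% lower). Libraries of the 2 lines did not overlap for 8 of 8, against 75.7% of all genes. The median of the 8 was -0.355 on the log2 scale, beside -0.044 for all genes.

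KLF4 had the largest of these differences, 3.59-fold lower in the WiNTRLINC1 line (log2 -1.84, SE 0.081, limma, adjusted p = 1.47e-10), followed by KLF5 at 2.24-fold lower (-1.16, SE 0.091, adjusted p = 6e-08). HNF4G was 1.58-fold lower (limma, adjusted p = 0.000192), FOXA2 1.43-fold lower (adjusted p = 0.00063) and CDX1 1.27-fold higher (adjusted p = 0.00238). CDX2 differed by 0.12 (95% interval -0.07 to 0.31, limma, adjusted p = 0.265), HNF4A by 0.21 (0.02 to 0.40, adjusted p = 0.0539) and GATA6 by -0.19 (-0.39 to -0.004, adjusted p = 0.0771). Between untreated lines the stomach and liver marker sums given above were higher in the WiNTRLINC1 line, as was the enteroendocrine sum. The colon epithelial sum was lower there, mostly through KRT8 (114236 and 104293 against 67554 and 64546) and KRT18. KRT20, LGALS4, VIL1, CEACAM5 and GPA33 were lower too, CDH17 overlapped, and EPCAM and CDH1 were higher. Pancreatic (107 to 127 against 45 to 50) and fibroblast sums (299 to 304 against 96 to 107) were lower too, as were lung and immune sums. The change of KLF4 was larger in size than that of 94.7% of tested genes with doxycycline in the WiNTRLINC1 line and than that of 90.4% between untreated lines, whereas that of CDX2 between untreated lines was larger than in 12.8%. Scaling the libraries to equal upper quartiles raised the median over all genes by 0.171 in this comparison and turned 5678 higher and 6525 lower genes (46.5% higher) into 6817 and 4723 (59.1%). Under it 3 of the 8 factors were higher and 4 lower, with CDX2 at 0.29 and HNF4A at 0.38 now passing (limma, adjusted p = 0.0234 and 0.00311). HNF4A passed under 6 of 19 alternatives in all, among them median-of-ratios scaling, and CDX2 only under this one. The untreated groups also serve as the controls of both doxycycline comparisons, so the 3 sets of values are not independent.

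Per kilobase of exons, all 8 factors were at or above the middle of the expressed range. CDX1 had a higher level than 95.7% of 21461 tested genes in untreated ASCL2-line cells, 92.6% after doxycycline, 96.8% in untreated WiNTRLINC1-line cells and 97.3% after doxycycline. HNF4G, the least abundant of the 8 in all 4 groups, exceeded 60.5%, 65.7%, 51.7% and 50.6%. The order was KLF5, CDX1, CDX2, KLF4, HNF4A, GATA6, FOXA2 and HNF4G in untreated ASCL2-line cells, with group means of 1400, 1350, 994, 909, 436, 242, 208 and 131 per kilobase. The libraries of KLF5 and CDX1 overlapped, as did those of CDX2 and KLF4.

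After doxycycline KLF5 at 1210 and KLF4 at 1090 led the ASCL2 line, ahead of CDX1 at 937 and CDX2 at 589. In the WiNTRLINC1 line CDX1 led in both groups, at 1700 and 2000, and CDX2 followed at 1080 and 845. KLF5 moved from the third place to the fifth and KLF4 from the fifth to the fourth with doxycycline in that line, at 626 and 508 for KLF5 and 253 and 509 for KLF4, which overlapped in the treated cells. No other neighbours in the order overlapped between libraries in any group. Ranks came out alike with the longest transcript as the length, except that KLF4 passed CDX2 in untreated and KLF5 in treated ASCL2-line cells.

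**Figure D3:**
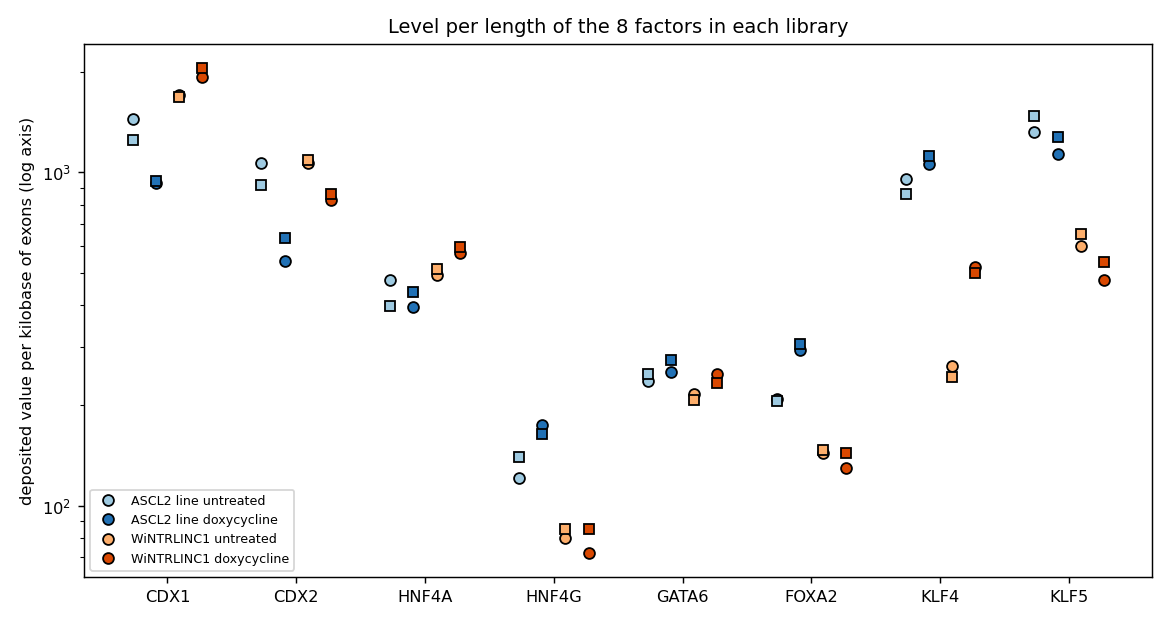
Deposited value per kilobase of exons (log axis) of the 8 factors in each library, circles and squares being the first and second library of a group. CDX1 is highest in the WiNTRLINC1 line, HNF4G is lowest of the 8 in every group, and FOXA2 and HNF4G are lower in the WiNTRLINC1 line.

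Except for CDX2 and GATA6, the variation of the factors over the 8 libraries was mostly between the lines. The line took 93.8% of the sum of squares of KLF5, 88.5% of HNF4G, 82.0% of FOXA2, 79.6% of KLF4, 74.7% of CDX1 and 71.6% of HNF4A, beside a median of 59.1% over all genes. CDX2 had 64.2% assigned to doxycycline in both lines alike and 22.0% to the line, where the median gene had 7.74% for doxycycline. GATA6 had 45.1% for the line, its largest share but less than that of the median gene, and 38.8% for doxycycline. CDX1 had 20.5% for a doxycycline response that differed between the lines, beside a median of 4.06%.

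**Figure D4:**
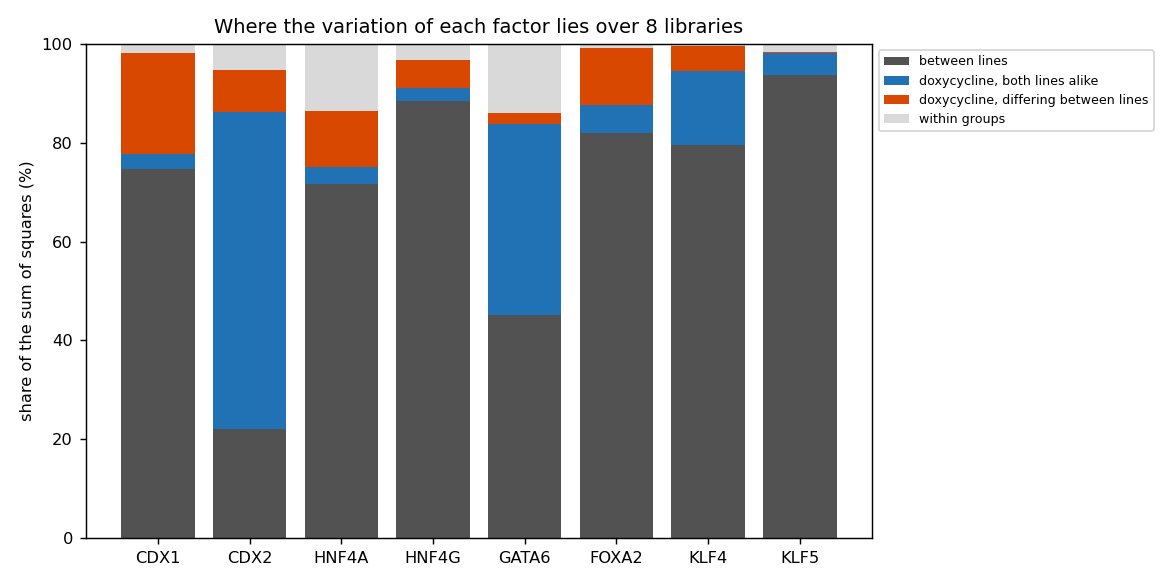
Share of the sum of squares of log2(value + 1) over 8 libraries (percent) that lies between lines, with doxycycline in both lines alike, with doxycycline differing between lines, and within groups. CDX2 is the only factor of the 8 with most of its variation (64.2%) assigned to doxycycline.

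Among the 28 pairs of factors, HNF4G and FOXA2 had the most alike profiles, at a root-mean-square difference of 0.0938 log2 units between profiles centred on their own means, and CDX1 and KLF4 the least, at 1.16 (median 0.546). These profiles share 8 libraries in 2 lines, so they are a description only. Over genes whose mean was 100 or more, the closest profiles to CDX1 were ATP5F1A (0.0422) and SEPTIN6 (0.0431), to CDX2 DHFRP1 (0.0646) and ADAT1 (0.0662), and to HNF4A AHSA1 (0.045) and CLP1 (0.0509). Closest to HNF4G were HYCC1 (0.0582) and OSBPL8 (0.062), to GATA6 PITRM1 (0.042) and GAS2L1 (0.0424), and to FOXA2 TMEM41B (0.0562) and RPS26P3 (0.0591). KLF4 was followed at a greater distance, by SERPINB5 (0.13) and ARHGAP29 (0.133), and KLF5 by FLYWCH2 (0.0849) and ANKMY2 (0.0996).

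Other endodermal and intestinal transcription factors gave the setting. Of 25 listed, 24 were found and 21 were tested. In the ASCL2 line 2 rose and 9 fell, against 13.9% and 12.7% of all genes, and in the WiNTRLINC1 line 3 rose and 3 fell, against 9.54% and 9.03%. Their median log2 changes were -0.283 and -0.164, beside 0.00625 and 0.00724 over all genes. Without the first treated ASCL2-line library 7 rather than 11 of the 21 were called in that line.

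The epithelial ETS factor ELF3 fell in both lines, from 920 and 860 to 434 and 452 and from 1143 and 1167 to 747 and 725 (limma, adjusted p = 1.57e-06 and 0.000129). Its relative EHF fell from 6365 and 6082 to 3118 and 2814 in the ASCL2 line (limma, adjusted p = 2.51e-07). It fell less in the WiNTRLINC1 line, from 4858 and 5423 to 4060 and 4202 (limma, adjusted p = 0.0118). The signed log2 responses of EHF differed by 0.76 (limma, adjusted p = 0.000287). ATOH1, the master factor of secretory cells, went from 27 and 20 to 3 and 0 in the ASCL2 line, a call at an adjusted p of 0.000301 by limma with no fold given because treated values are near 0. In the other line it went from 58 and 74 to 9 and 14.

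Doxycycline in the WiNTRLINC1 line was followed by higher levels of the hindgut homeobox gene HOXA13, which rose from 327 and 351 to 520 and 489, and PPARG, a nuclear receptor of colonocyte differentiation, from 2707 and 2641 to 3476 and 3544 (limma, adjusted p = 0.00084 and 0.00137). In the ASCL2 line PPARG fell instead, from 3460 and 3204 to 2705 and 2769 (limma, adjusted p = 0.00911). PPARG and ONECUT2, an endodermal homeodomain factor, differed in response by 0.68 and -0.69 (limma, adjusted p = 0.000349 and 0.031). The call of ONECUT2 was lost without any of 6 libraries, among them both treated ones of each line. The difference of responses was called for 3 of the 21 as higher and 1 as lower, against 7.39% and 7.6% of all genes.

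Between untreated lines 6 of the 21 were higher in the WiNTRLINC1 line and 12 lower, against 25.7% and 29.5% of all genes. SOX9, a crypt progenitor factor, had 14800 and 14193 in the ASCL2 line and 6192 and 6240 in the WiNTRLINC1 line, HOXA13 had 1036 and 921 against 327 and 351, and GFI1, a factor of secretory lineages, 164 and 194 against 22 and 17 (limma, adjusted p = 1.31e-09, 8.78e-09 and 1.1e-07). NEUROG3, which starts the enteroendocrine lineage, had 0 and 1 in the ASCL2 line and 101 and 102 in the WiNTRLINC1 line. Of the 4 enteroendocrine markers, CHGA lay between 3 and 7, NEUROD1 between 0 and 6, CHGB between 3 and 13 and SYP between 42 and 114. Their summed level was 89 to 111 in the untreated ASCL2 line and 118 to 132 in the untreated WiNTRLINC1 line, and 53 to 63 and 64 to 99 after doxycycline.

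All 13 listed KLF and SP relatives of KLF4 and KLF5 were tested. With the ASCL2 hairpin 5 rose, 0 fell and 8 did not pass (against 13.9% higher and 12.7% lower over all genes), with 7 at an unadjusted p under 0.05 by limma. Without the filter on low values 1 was called, and leaving out any ASCL2-line library left 2 or 3. Median log2 changes of the 13 were 0.0669 and -0.0137 in the ASCL2 and WiNTRLINC1 lines. KLF6, a growth-restraining relative, rose most, from 2309 and 2204 to 5699 and 5845 (2.56-fold, limma, adjusted p = 1.9e-08). KLF2, KLF7 and KLF16 rose 1.61-fold, 1.61-fold and 1.28-fold (limma, adjusted p = 0.0211, 0.00306 and 0.00827). The call of KLF2 was lost without any 1 ASCL2-line library and that of KLF16 without the second untreated or the first treated one, and the log2 change of KLF7 ranged from 0.396 to 0.974 over alternatives.

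With the WiNTRLINC1 hairpin 2 of the 13 rose, 2 fell and 9 did not pass (9.54% and 9.03% over all genes). KLF12 rose from 30 and 32 to 78 and 73, and KLF16 rose 1.26-fold, whereas KLF2 went from 107 and 102 to 79 and 51 and KLF13 from 5734 and 5861 to 4431 and 4318 (limma, adjusted p = 0.000359, 0.0151, 0.0233 and 0.000529). The calls of KLF2 and KLF16 here each lost their side of the threshold under 6 of 19 alternatives, with adjusted p up to 0.242 and 0.158 by limma. KLF2 thus went up in one line and down in the other, a difference of -1.39 on the log2 scale, and KLF6 differed by -1.26 (limma, adjusted p = 0.00378 and 2.92e-06). In all, the signed log2 change was higher in the WiNTRLINC1 line for 1 of the 13 and lower for 4 (7.39% and 7.6% of all genes). Between untreated lines 2 were higher and 9 lower in the WiNTRLINC1 line (25.7% and 29.5% of all genes), the latter including KLF12 (7.53-fold), KLF6 (2.00-fold), KLF10 (1.73-fold) and KLF13 (1.30-fold). Under equal upper quartiles 7 rather than 11 of the 13 were called, and KLF13 was no longer among them.

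Intestinal genes known to depend on CDX or HNF4 factors were read beside them. Of 28 listed, 22 were tested. FABP2, APOA4, MEP1A, SLC26A3 and TM4SF20 lay between 0 and 12 in all libraries and were too low to test. In the ASCL2 line 5 rose and 8 fell, against 13.9% and 12.7% of all genes, with a median log2 change of -0.32. With the WiNTRLINC1 hairpin 7 rose and 2 fell, against 9.54% and 9.03%, with a median of -0.017.

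CDH17, the liver-intestine cadherin and a CDX target, moved in opposite directions in the 2 lines. It had 5193 and 4259 without and 2363 and 2248 with doxycycline in the ASCL2 line, and 4588 and 4486 without and 7372 and 7735 with doxycycline in the WiNTRLINC1 line. It fell 2.04-fold in the first and rose 1.66-fold in the second, a difference of 1.76 (SE 0.123, limma, adjusted p = 5.98e-07). The colon antigen GPA33, also a CDX target, fell in both lines, from 16414 and 16693 to 5450 and 5450 (3.04-fold) and from 10631 and 10089 to 5943 and 5842 (1.76-fold), with a difference of 0.79 (limma, adjusted p = 4.63e-05).

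Some genes of the list rose. The peptidase DPP4 went from 416 and 487 to 1172 and 1165 in the ASCL2 line (2.59-fold) and the tight junction protein CLDN2 from 2668 and 3397 to 10695 and 11658 (3.71-fold), each with a smaller response in the WiNTRLINC1 line (difference -0.89 and -1.84, limma, adjusted p = 0.000404 and 1.02e-06). The goblet mucin MUC2 rose 1.38-fold in the WiNTRLINC1 line, and the ferroxidase HEPH rose there from 2415 and 2489 to 3527 and 3349 (limma, adjusted p = 0.00086 and 0.000325). HEPH also rose in the ASCL2 line, from 1291 and 1225 to 1969 and 2057 (1.60-fold, limma, adjusted p = 1.16e-05). The response differed for 8 of the 22 genes, with the signed log2 change higher in the WiNTRLINC1 line for 5 and lower for 3 (7.39% and 7.6% of all genes).

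Between untreated lines 6 of the 22 were higher in the WiNTRLINC1 line and 8 lower, against 25.7% and 29.5% of all genes. MUC2 had 849 and 807 against 14633 and 14085 (17.3-fold higher), FABP1, a fatty acid carrier, 6 and 4 against 146 and 96, and HEPH 1291 and 1225 against 2415 and 2489. The brush border protocadherin CDHR5 had 1153 and 1232 against 239 and 186 (5.63-fold lower). The lists were chosen with earlier results of these data known, and CDH17 and GPA33 are also among the colon epithelial markers used above.

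**Figure D5:**
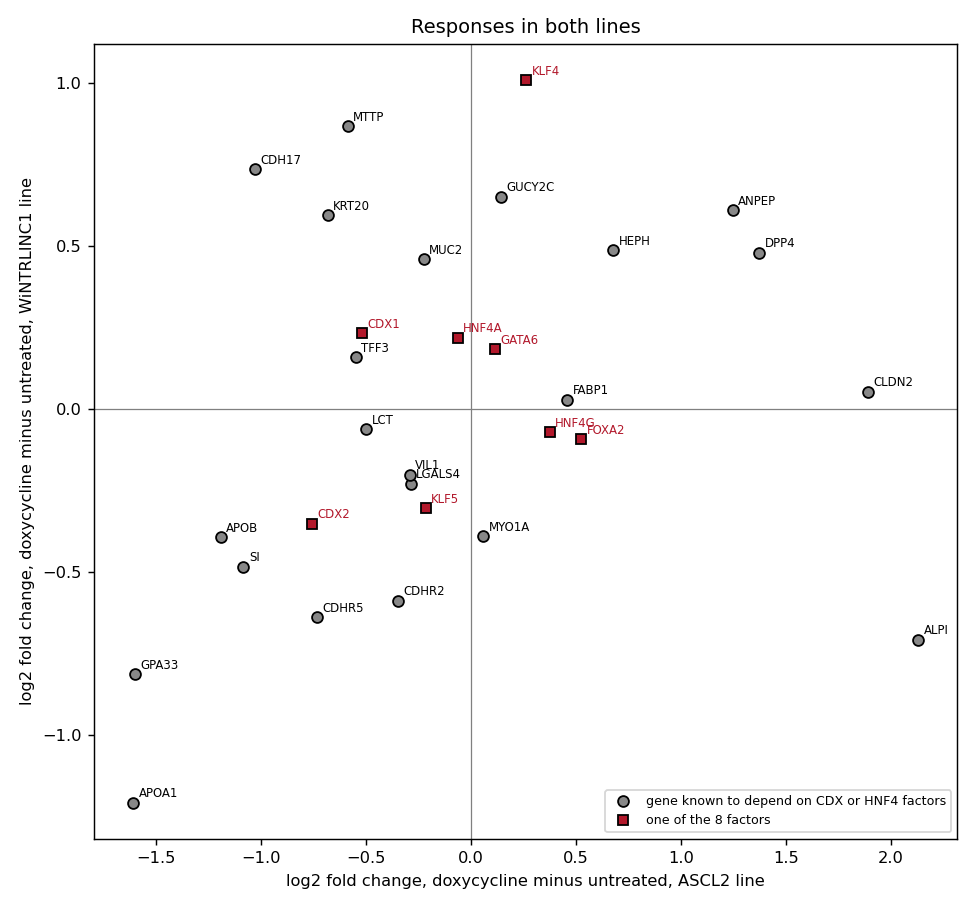
Log2 fold change with doxycycline in the ASCL2 line (horizontal) and the WiNTRLINC1 line (vertical) of the 8 factors (squares) and of 22 tested genes known to depend on CDX or HNF4 factors (circles). CDX1 and CDH17 lie in the upper left, CDX2 and GPA33 in the lower left, and KLF4 at the top.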

How the data were processed

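RNA was measured in 8 libraries of 4 groups with 2 libraries each. The tools named per the submitters' processing notes are TopHat2 2.0.9, cutadapt, DESeq and Cufflinks, and the builds are hg19, mm9 and GRCh37, with no role. Which counter and annotation were used, and whether strand was, is not given in the sources used here. Each deposited score is a whole number, by its values a read count scaled per library and rounded: in 7 of 8 libraries some whole numbers from 1 to 25 are skipped or over-used, so it is not a raw count and no count test was run, as fixed for such values.

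Values were tested as log2(value + 1) with limma 3.58.1 in R 4.3.3 (mean-variance trend, 4 residual and 10.5 prior degrees of freedom), over all 8 libraries without covariates. Genes entered if 2 or more libraries had a value of 10 or higher, 22100 in all, with Benjamini-Hochberg adjustment over them and calls at an adjusted p under 0.05. Fold changes on this scale understate low genes. The contrasts were treated minus untreated cells within each line, the difference of these responses, and the untreated WiNTRLINC1 line minus the untreated ASCL2 line. Symbols came from a gene name table (39501 of 57736 identifiers), and exon lengths from GENCODE, whose build is not that of the files, so only lengths and chromosomes were used. Promoter windows came from RefSeq for 5 of the 8 factors.

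The members and lists were chosen with earlier results of these data known. Named are the 8 factors, ASCL2, up to 4 called genes of smallest adjusted p per list and comparison, the 2 nearest profiles of each factor and the cell type markers. FOXA1 in the ASCL2 line, the low untested genes and GATA6-AS1 were named after their values were seen. PECAM1 and GIF had no clear match, and like WiNTRLINC1 itself were not analysed here. Some listed genes are counted but not reported here by name. Replicate pairs differed beyond counting noise (chi-square per degree of freedom 5.06 to 7.26), so none was merged. The procedure was tested on simulated data. Alternatives were another pseudocount, filter, variance model or scaling, each line alone, a replicate block and each library left out.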

Additional observations from a re-analysis of the deposited data

Results flagged for a closer look

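The response to doxycycline differed between the lines, by limma's test of the difference itself, for 4 of 8 factors, against 15.0% of genes tested. On the log2 scale, the response in the WiNTRLINC1 line minus that in the ASCL2 line was 0.749 for CDX1, 0.404 for CDX2, 0.746 for KLF4 and -0.618 for FOXA2. The call of CDX2 was lost under 11 of 19 alternatives, that of FOXA2 under 2 and those of CDX1 and KLF4 under 0. In the other lists the same test called 4 of 21 transcription factors and 5 of 13 KLF and SP relatives. It also called 8 of 22 genes that depend on CDX or HNF4 factors. The 12 given here are the 4 of smallest adjusted p in each list. KLF7 (-0.803) and MUC2 (0.684) were among those called but left out. Among transcription factors the difference was 0.664 for FOXA1, 0.757 for EHF, 0.675 for PPARG and -0.691 for ONECUT2. Among KLF relatives it was 1.41 for KLF12, -1.39 for KLF2, -1.26 for KLF6 and -0.584 for KLF13. Among genes that depend on CDX or HNF4 factors it was 1.76 for CDH17, 0.789 for GPA33, -0.895 for DPP4 and -1.84 for CLDN2. Of these 12, the call of ONECUT2 was lost under 9 of 19 alternatives and those of FOXA1 and KLF2 under 1 each. All of these comparisons use the same 8 libraries, and groups of 2 are too small to look for a single library standing apart.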

How the results depend on the processing

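Of 616 recomputed values of the 8 factors in 4 comparisons, 556 kept their direction and side of the threshold, 38 lost their call, 18 gained one and 4 turned sign. In the ASCL2 line 5 factors were called, and 3 without the filter on low values, without the mean-variance trend and with equal upper quartiles. In the WiNTRLINC1 line 3 were called, and 1 without the filter and 1 without the trend. The responses differed for 4, and for 2 without the trend and 2 with equal upper quartiles. Leaving out each library in turn left 3 to 5 factors called in the ASCL2 line (3 without either treated library of that line), 1 to 4 in the WiNTRLINC1 line (1 without its first treated library or either untreated one), 3 to 5 for the difference and 5 to 6 between untreated lines. Where this leaves 1 library in a group, it is assumed to vary like the others. The 4 turned signs were of changes not called: HNF4A in the ASCL2 line ranged from -0.191 to 0.0654, HNF4G in the WiNTRLINC1 line from -0.189 to 0.0471 and the KLF5 difference from -0.18 to 0.00379.

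Over all genes, 5884 calls in the ASCL2 line became 3410 without the trend and 3665 without the second treated library; 4104 in the WiNTRLINC1 line became 1873 and, without the filter, 2395, and 2398 to 2709 without its first untreated or either treated library; and 3314 differences became 1313 and 1914. The causes were not tested. Deviations of same-numbered untreated and treated libraries correlated over 13215 genes at 0.302 for WiNTRLINC1-line cells and at -0.143 for ASCL2-line cells. The labels tie no number to a shared culture or day and a line holds only 2 such numbers, so they were not taken to pair samples. With a replicate block 6, 3, 3 and 5 factors were called in the ASCL2 line, the WiNTRLINC1 line, their difference and the untreated lines. With the ASCL2-line numbers crossed, chosen after seeing the data, 6 were called in that line and 6 for the difference, and 7164 and 4589 over all genes. Each line fitted alone gives no difference of responses. Of 16 nearest profiles, 14 remained with a mean of 500 or more. With equal totals 44.7% rather than 52.3% of ASCL2-line calls over all genes were higher, and 58.8% rather than 49.3% of differences. With 2 libraries a group, differences smaller than the intervals given could not be seen.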
